A study of Mus musculus with 24 samples.

Results

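The comparison described here asked what daily treatment with an antibody against Ly6G changed in the lung epithelium of irradiated mice. It set 4 libraries of irradiated, antibody-treated mice against 4 libraries of irradiated mice given a control IgG, 8 of the 24 libraries of the series. All mice were female Balb/c mice, 8 weeks old. The irradiated group received 13 Gy aimed at the lungs with the IgG control antibody, the depleted group received 13 Gy with the Ly6G antibody daily, and the sham group, which served to estimate the spread, was sham-irradiated with the IgG. Lungs were taken 7 days later, and the design text gives 4 mice a group. Cells without CD45, CD31 and Ter119 and with EpCAM were sorted as epithelium. The extraction protocol writes CD45 where CD31 would stand in the gate, and the cell type entry names CD31. The antibody was given to the whole animal, so its effect is not limited to the lung. Of the 48795 gene identifiers in the table, the members are the 16626 that reached a normalised count of 10 in 4 or more of the 12 epithelial libraries. A normalised count is a read count divided by the size factor of its library.

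Neutrophils are short-lived phagocytes of the blood that enter injured tissue, and Ly6G is a surface protein of mouse neutrophils. The distal lung is lined by flat alveolar type 1 cells for gas exchange and by alveolar type 2 cells that make surfactant, and the airways by club, ciliated and basal cells. Lung epithelium answers inflammatory signals by secreting acute phase proteins, complement components and antimicrobial proteins, many of them under control of C/EBP, NF-kB and STAT factors.

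Epithelial depleted libraries held 8159062 to 9267632 reads and irradiated libraries 10884703 to 13373329, so the groups did not overlap in depth. Sham libraries held 9776113 to 11710964 reads. A count of 0 allows up to 3 reads, a normalised count of 2.36 to 3.81, which covers counting error only since the reads carry no molecular identifiers. Pan-epithelial markers had a mean log2 level of 10.06 to 10.11 in irradiated and 10.06 to 10.18 in depleted libraries. Epcam lay between 1053 and 1111 in irradiated libraries and between 1002 and 1116 in depleted ones.

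Few genes were called between the depleted and the irradiated epithelium. With 4 libraries a side, a small count of calls does not show that few genes changed. The acute phase gene Saa3, the secreted protein gene Retnla, the adhesion gene Chl1, the metallothionein gene Mt2 and the prostaglandin receptor gene Ptger3 rose, and small nuclear and nucleolar RNAs fell. In all, limma called 79 of 16626 genes (0.475% of those tested), 34 higher (0.204%) and 45 lower (0.271%). A gene was called at a Benjamini-Hochberg adjusted p under 0.05 over all genes tested. Of the calls 13 were at least 2-fold higher and 23 at least 2-fold lower. Protein-coding genes made up 29 of the rises but 20 of the falls. At an unadjusted p under 0.05 there were 2066 genes (12.4%), and for 1066 genes (6.41%) the ranges of the depleted and irradiated libraries were separate (written below as groups that did not overlap). Scaling by library totals gave 53 higher and 44 lower calls, and DESeq2 gave 155 higher and 134 lower. The labels name no preparation or sequencing batch.

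**Figure D1:**
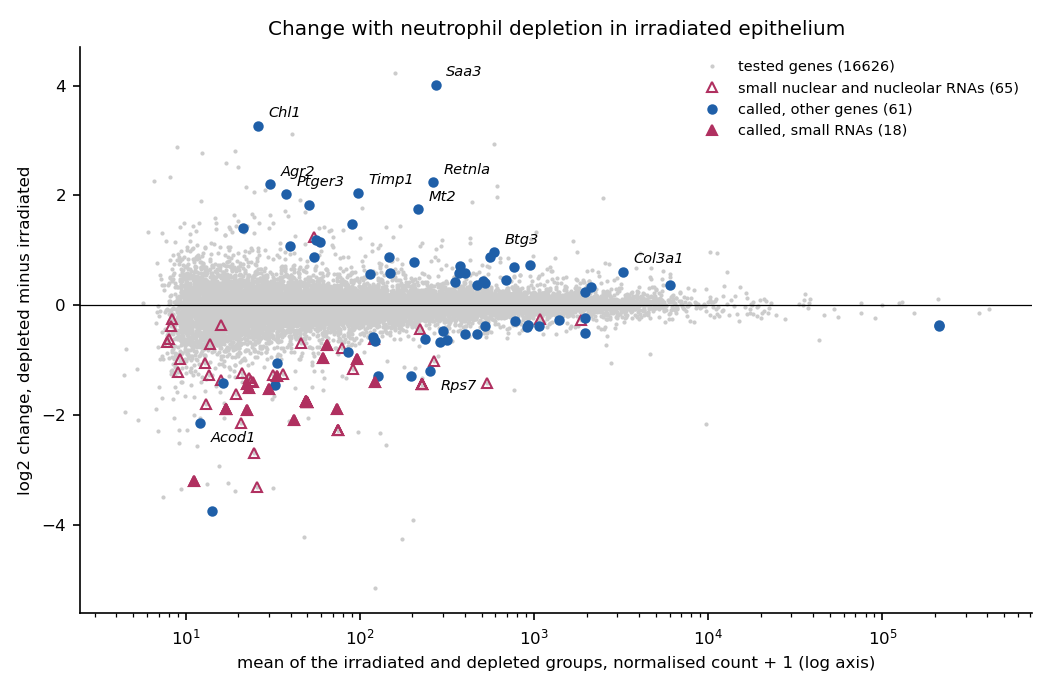
Log2 change of the depleted against the irradiated group (vertical axis) by the mean normalised count + 1 of both groups (horizontal log axis) for the 16626 genes tested. Blue points are the 61 called genes that are not small RNAs, filled triangles the 18 called small RNAs and open triangles the other small RNAs. Saa3 and Chl1 stand highest among the called genes, and 64 of the 65 small RNAs lie below 0.

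Saa3 (ENSMUSG00000040026, GRCm38 chromosome 7, start 46711998, end 46715700, minus strand) codes for a serum amyloid A protein made in inflamed tissue. Its normalised counts were 4.88, 5.31, 10.7 and 5.20 in sham, 20.6, 71.7, 20.2 and 24.1 in irradiated and 608, 356, 377 and 694 in depleted libraries. Every depleted library stood above every irradiated one, and the second irradiated library stood above the other irradiated ones. The log2 change with depletion was 4.01 ± 0.397 (SE of the fit; adjusted p = 0.00114). With irradiation against sham, a comparison that shares the irradiated libraries, it was 2.07 (adjusted p = 0.0152), where 3.14% of genes were called.

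Retnla (ENSMUSG00000061100, chromosome 16, start 48842551, end 48844461), which codes for a secreted resistin-like protein of type 2 inflammation, had 82.2, 105, 86.6 and 74.0 in irradiated and 654, 283, 299 and 518 in depleted libraries. Sham libraries ranged from 64.4 to 130, a range that held all irradiated libraries and no depleted one. The log2 change was 2.24 ± 0.289 (adjusted p = 0.00756). Retnla thus differed between the depleted group and both others, while its change with irradiation was -0.02 (adjusted p = 0.989).

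Chl1 (ENSMUSG00000030077, chromosome 6, start 103510586, end 103750211), which codes for a cell adhesion molecule of the L1 family and was picked after its values were seen, had 3.91, 3.15, 4.05 and 4.02 in irradiated libraries. These levels are close to what a count of 0 allows. Depleted libraries had 56.1, 34.3, 36.1 and 58.6, a log2 change of 3.27 ± 0.465 (adjusted p = 0.00315) on the log2(value + 1) scale, which understates changes of low genes.

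Metallothioneins bind zinc and copper and are induced by metals and by inflammation. Mt2 (ENSMUSG00000031762, chromosome 8, start 94172664, end 94173568) had 71.4, 116, 75.3 and 124 in irradiated and 345, 226, 260 and 504 in depleted libraries. The groups did not overlap, and the log2 change was 1.75 ± 0.237 (adjusted p = 0.00616). Fitted without the sham libraries, the same change did not pass (adjusted p = 0.0904). Its neighbour Mt1, also picked after its values were seen, had 405, 466, 352 and 517 in irradiated and 726, 623, 480 and 754 in depleted libraries. Those groups overlapped, and Mt1 did not pass the test (log2 0.56 ± 0.162, adjusted p = 0.168). Of the 2 metallothionein genes tested, 1 rose.

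The promoters of Mt2 and Saa3 are shown because these genes had among the largest rises and their classes of promoter sites are well known. Each sequence is the 250 bases before the RefSeq start on GRCm38.p6, read 5′ to 3′ on the strand of the gene. Capitals mark matches, on either strand, of the letters TGCNCNC in Mt2 and of the C/EBP letters TTNNGNAA in Saa3. TGCNCNC is a looser form of the metal response element core, since N is any base. Mt2 is at chr8:94172368-94172617 on the plus strand and Saa3 at chr7:46715677-46715926 on the minus strand.
Mt2: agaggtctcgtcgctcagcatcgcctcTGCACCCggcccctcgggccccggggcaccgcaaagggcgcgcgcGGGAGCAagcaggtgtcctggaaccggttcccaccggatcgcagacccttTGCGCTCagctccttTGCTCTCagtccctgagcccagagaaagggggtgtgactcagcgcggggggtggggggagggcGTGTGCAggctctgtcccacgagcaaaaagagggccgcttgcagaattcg
Saa3: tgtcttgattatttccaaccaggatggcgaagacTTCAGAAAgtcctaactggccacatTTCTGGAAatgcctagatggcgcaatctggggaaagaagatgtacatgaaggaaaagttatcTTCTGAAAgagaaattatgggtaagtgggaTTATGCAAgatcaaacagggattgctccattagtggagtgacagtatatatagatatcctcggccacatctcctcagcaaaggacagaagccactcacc

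The Mt2 window held 5 matches of TGCNCNC, starting at -223, -178, -128, -113 and -50 from the RefSeq start. Not all of them need be metal response elements, as the letters are looser than the core. The Saa3 window held 4 matches of the C/EBP letters, starting at -216, -191, -129 and -99. Neither motif is rare in windows of this length. The letters TGCNCNC were in 43.83% and the C/EBP letters in 36.89% of 27025 RefSeq promoters. Among the 34 genes called higher, 24 had a RefSeq promoter, of which 8 held TGCNCNC and 11 the C/EBP letters. The AP-1 letters TGANTCA were in 3 of the 24 and in 6.87% of all promoters, Mt2 among the 3 with a match at -79. The STAT letters TTCNNNGAA (7.18% of all promoters) and the NF-kB motif (4.0%) were in 0 of the 24. Matches of different motifs did not overlap in the windows shown. A match describes letters and not binding.

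Single genes for receptors and signalling proteins also rose. Ptger3 (ENSMUSG00000040016, chromosome 3, start 157566892, end 157645888) codes for the EP3 receptor of prostaglandin E2. It had 8.81, 15.8, 12.9 and 18.5 in irradiated and 46.0, 54.7, 75.6 and 59.8 in depleted libraries, groups that did not overlap (log2 2.02 ± 0.278, adjusted p = 0.00288). Rgs4, which codes for a protein that shortens G protein signals, had 10.8, 29.2, 15.4 and 33.8 in irradiated and 58.4, 63.6, 117 and 69.4 in depleted libraries (log2 1.83 ± 0.361, adjusted p = 0.0367). Mst1r, which codes for the receptor of macrophage-stimulating protein, had 22.5, 31.5, 18.6 and 24.9 and then 58.4, 34.3, 50.8 and 69.4 (log2 1.07 ± 0.234, adjusted p = 0.0498), close to the threshold. The adhesion G protein-coupled receptor gene Adgrd1 rose by a log2 change of 0.79 ± 0.128 and the kinase gene Pim3 by 0.73 ± 0.116. Btg3, of the antiproliferative BTG family, had 431, 422, 396 and 343 in irradiated and 701, 712, 895 and 802 in depleted libraries. Its sham libraries lay between 397 and 581, and its log2 change with depletion was 0.96 ± 0.122 (adjusted p = 0.00315).

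Matrix and secreted genes rose in part. Timp1, which codes for an inhibitor of metalloproteinases, had 15.7, 67.8, 36.4 and 33.0 in irradiated and 125, 82.6, 159 and 252 in depleted libraries. The groups did not overlap (log2 2.05 ± 0.392, adjusted p = 0.0436). The Timp1 call was lost under 15 of 28 alternatives, among them edgeR, with log2 changes between 1.51 and 2.40. Col3a1, which codes for a fibrillar collagen, had 2514, 2825, 2449 and 2481 in irradiated and 4332, 3213, 4385 and 3813 in depleted libraries (log2 0.61 ± 0.0832, adjusted p = 0.00315). Of the 50 matrix and TGF-beta genes tested these were the 2 called, with 24 members above 0 and a median of -0.01 beside 0.00 over all genes. Col1a1, the other main fibrillar collagen gene of the fraction, had a log2 change of 0.17 ± 0.0899 (adjusted p = 0.489). Igfbp4, which binds insulin-like growth factors, rose by 0.58 ± 0.102, and Proz, which codes for protein Z of coagulation, by 0.59 ± 0.119. Igfbp4 was the only limma call among 17 adventitial fibroblast genes, of which 7 were above 0, with a median of -0.08. The summed level of that list was 5364 to 5734 in irradiated and 4946 to 5777 in depleted libraries. The part of fibroblasts among the sorted cells in these matrix values was not tested.

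Among transcription factors and enzymes, Osr1, a zinc finger factor of mesoderm, had 22.5, 37.8, 43.7 and 28.9 in irradiated and 62.8, 57.2, 79.0 and 106 in depleted libraries (log2 1.18 ± 0.22, adjusted p = 0.0202). Nfil3, a repressor tied to the circadian clock, rose by 0.41 ± 0.0732 and Gfpt2, an enzyme of hexosamine synthesis, by 0.88 ± 0.146. The antiviral membrane protein gene Ifitm3 had 228, 359, 255 and 308 in irradiated and 426, 408, 510 and 517 in depleted libraries (log2 0.71 ± 0.131, adjusted p = 0.0259). It was the only call among 32 interferon response genes, of which 14 were above 0. Further calls, named after their values were seen, were Itga7, a laminin receptor subunit (0.45 ± 0.0762), Fbxo32, a subunit of a ubiquitin ligase (0.42 ± 0.0746), and Susd6 (0.32 ± 0.0628).

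**Figure D2:**
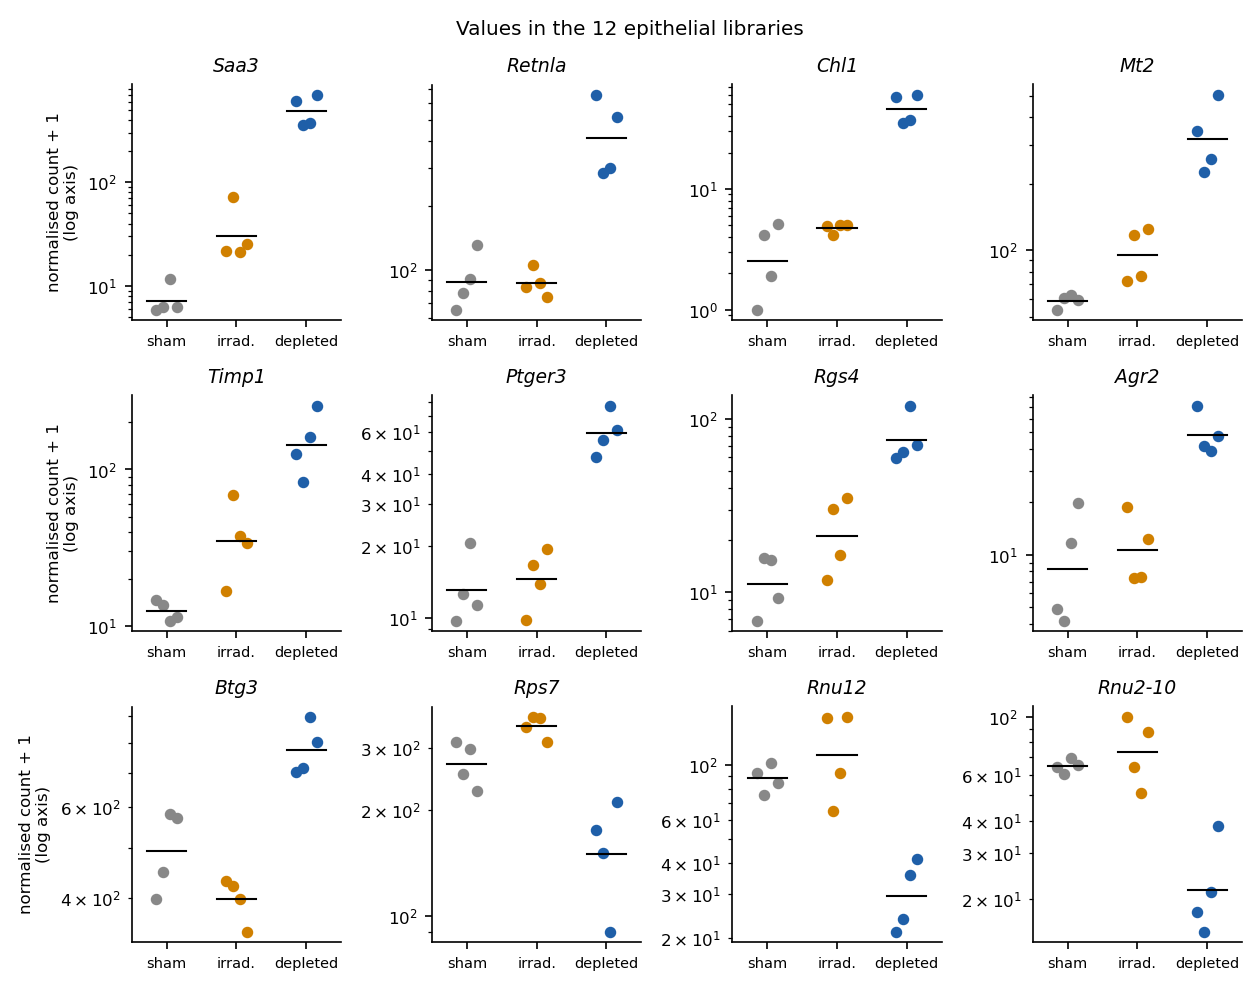
Normalised count + 1 (log axis) of 12 genes in the 4 sham (grey), 4 irradiated (orange) and 4 depleted (blue) epithelial libraries. Each point is a library and the line is the geometric mean of a group. For Saa3, Retnla, Chl1, Mt2, Timp1, Ptger3, Rgs4, Agr2 and Btg3 the depleted libraries lie above the irradiated ones, and for Rps7, Rnu12 and Rnu2-10 below them.

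The gene lists placed these genes in their pathways. Of 44 lists, 11 had 1 or 2 members called and 33 had 0 called by limma. Of those 33, 30 had a member at an unadjusted p under 0.05, 0 had one called by edgeR and 17 had one called by DESeq2. With 12.4% of all genes at an unadjusted p under 0.05, such a member is common in any list of these sizes.

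All 12 tested genes of the acute phase list were above 0, with a median of 0.46, and Saa3 and Retnla were the 2 called. Retnla is on that list but codes for the resistin-like protein described above, so of these 2 only Saa3 is an acute phase gene. The groups did not overlap for 6 of the 12, beside 6.41% of all genes. Named after their values were seen, Lcn2, an iron-trapping antimicrobial protein, had a mean of 2966 in irradiated and 4725 in depleted libraries (log2 0.68 ± 0.156, adjusted p = 0.102). Reg3g, an antibacterial lectin, had 352, 85.9, 30.7 and 237 in irradiated and 1653, 675, 959 and 732 in depleted libraries. Those groups did not overlap, but the spread within the irradiated group was wide (log2 2.93 ± 0.853, adjusted p = 0.196). Lrg1 (0.54) and the copper carrier gene Cp (0.65) also did not pass.

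Of 17 complement genes 11 were above 0, with a median of 0.10 and values from -0.61 to 1.97. Here 0 were called by limma or edgeR, 7 higher and 1 lower had an unadjusted p under 0.05, and DESeq2 called 6. Cfb, factor B of the alternative pathway, had 115, 470, 167 and 327 in irradiated and 879, 587, 1080 and 1268 in depleted libraries (log2 1.97 ± 0.427, adjusted p = 0.0992). The values of C3 (0.95 ± 0.232) and of the C1 proteases C1ra (0.72 ± 0.152, adjusted p = 0.0654) and C1s1 (0.86 ± 0.215) were also higher in every depleted library than in every irradiated one. In 5 of the 17 the groups did not overlap, beside 6.41% of all genes. These 4 complement genes were named after their values were seen.

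Of 35 inflammatory cytokine and NF-kB genes 29 were above 0, with a median of 0.15. Here 0 were called by limma or edgeR and 2 by DESeq2, with 9 higher and 0 lower at an unadjusted p under 0.05. The C/EBP factor genes Cebpb (0.36 ± 0.0844, adjusted p = 0.0655) and Cebpd (0.46 ± 0.119, adjusted p = 0.13), named after their values were seen, did not pass. Of 13 chemokines and colony-stimulating factors that recruit neutrophils 7 were above 0 and 0 were called by limma or edgeR, with 2 higher and 1 lower unadjusted and 1 call by DESeq2. Of 27 unfolded protein response genes 22 were above 0 (median 0.12), with 10 higher and 1 lower at an unadjusted p under 0.05, 0 calls by limma or edgeR and 1 by DESeq2. The highest member was Herpud1, of protein degradation at the endoplasmic reticulum (0.52 ± 0.108, adjusted p = 0.0574). Of 12 core clock genes 11 were above 0 (median 0.14), with 4 higher unadjusted, 0 calls by limma or edgeR and 1 by DESeq2. Per1 had the highest value (0.74 ± 0.203, adjusted p = 0.165), and like Herpud1 it was named after its value was seen.

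Antigen presentation went the other way in its values. Of 25 genes 2 were above 0 and the median was -0.18, with 9 lower and 0 higher at an unadjusted p under 0.05 and 0 calls by limma, edgeR or DESeq2. Psmb9, of the immunoproteasome, had the lowest value (-0.57 ± 0.194, adjusted p = 0.209), and B2m, the light chain of class I molecules, was at -0.23 (adjusted p = 0.22). Both were named after their values were seen.

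Targets of p53, the factor that answers DNA damage, were not called with depletion. Cdkn1a, which codes for p21, had 2545, 4162, 3126 and 3453 in irradiated and 3762, 3231, 3380 and 5516 in depleted libraries, groups that overlapped (log2 0.25 ± 0.187, adjusted p = 0.661). Its change with irradiation against sham, which shares the irradiated libraries, was 2.65. Phlda3 (0.22 with depletion, 3.62 with irradiation), Gdf15 (0.30 and 2.58), Eda2r (0.01 and 3.02), Bax (0.13 and 1.71) and Mdm2 (0.17 and 0.64) did not pass the depletion test either. The sign of Eda2r was not stable under other settings. Of 38 p53 targets 28 were above 0 with a median of 0.14, and 0 were called by limma or edgeR and 1 by DESeq2, with 6 higher and 1 lower unadjusted. With irradiation 25 of the 38 rose, with a median of 1.04.

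Notch receptors and ligands, which signal between neighbouring cells and set epithelial cell fate, were not called. Of 8 tested 4 were above 0, with values from -0.38 (Dll4) to 0.14 (Notch2), 1 higher at an unadjusted p under 0.05 and 0 called by limma, edgeR or DESeq2. Notch1 was at 0.05 ± 0.0614, Jag1 at 0.09 ± 0.0587, Jag2 at -0.13 ± 0.116 and Notch3 at -0.13 ± 0.172. Notch4 (-0.09) and Dll1 (0.10) changed sign under other settings. Among 35 Notch targets and modulators 0 were called by limma or edgeR and 1 by DESeq2, with 1 higher and 4 lower unadjusted. Hes1, the main target, had 464, 470, 473 and 357 in irradiated and 401, 344, 411 and 327 in depleted libraries (log2 -0.25 ± 0.0923, adjusted p = 0.256), and Nrarp was at -0.25 ± 0.201. Hey1 (-0.20) and Lfng (-0.08) changed sign under other settings.

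**Figure D3:**
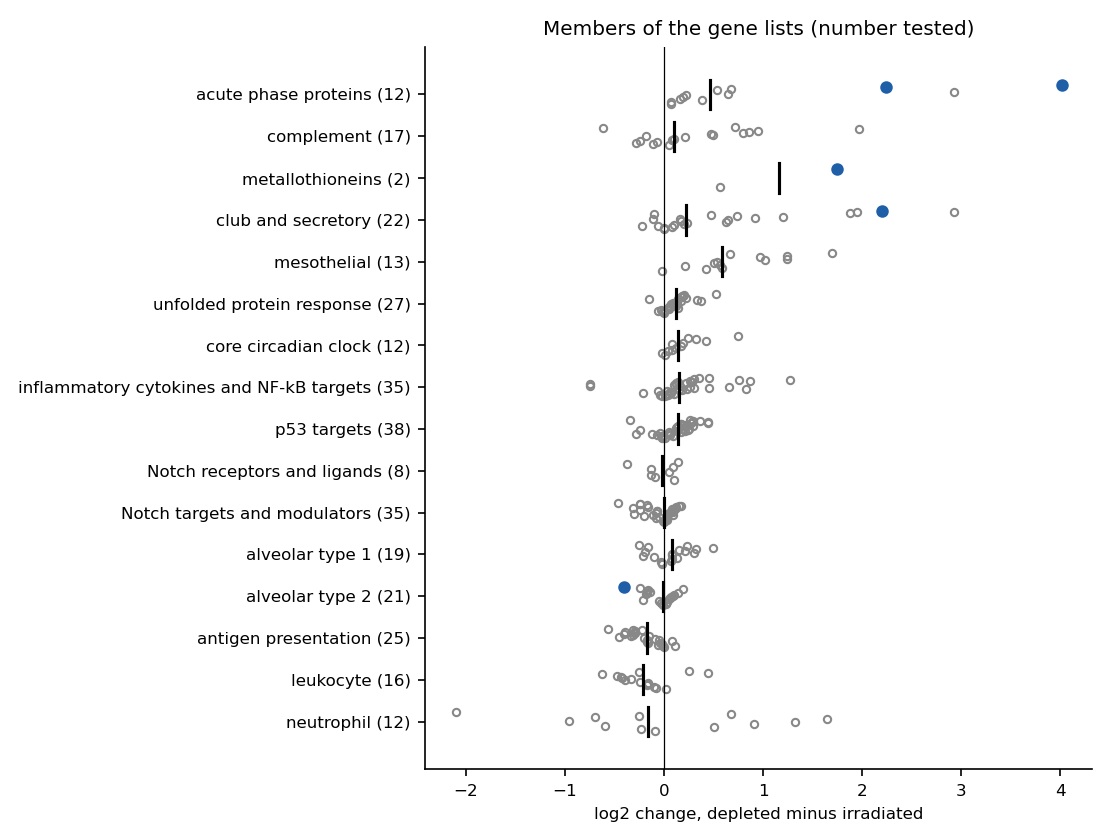
Log2 change of the depleted against the irradiated group for the tested members of 16 gene lists (number tested in brackets). Points are genes, filled where called by limma, and the black bar is the median of the list. All 12 genes of the acute phase list lie above 0, with Saa3 and Retnla filled, and 2 of 25 antigen presentation genes lie above 0.

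Cell type markers were compared to see which epithelial cells the fraction held. Alveolar type 2 genes had a median of -0.01 (21 tested, 9 above 0). S100g, a calcium-binding protein gene on that list, had 1046, 871, 1171 and 1041 in irradiated and 791, 803, 818 and 696 in depleted libraries (log2 -0.40 ± 0.0803, adjusted p = 0.0295). The surfactant gene Sftpc was at -0.14 ± 0.0585 (adjusted p = 0.32). Of 19 alveolar type 1 genes 11 were above 0 and 0 were called by limma, edgeR or DESeq2, with 3 higher and 2 lower unadjusted, and Ager was at -0.02. Of 25 ciliated genes 0 were called by these tools, with 3 higher unadjusted, and Foxj1 was at 0.15. The values of Ager and Foxj1 changed sign under other settings.

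Of 22 club and secretory genes 17 were above 0 with a median of 0.22. Agr2, a disulfide isomerase needed for mucin production, had 17.6, 6.30, 6.47 and 11.3 in irradiated and 69.6, 40.7, 38.4 and 46.7 in depleted libraries (log2 2.198 ± 0.45, adjusted p = 0.041). Muc5b, the airway mucin and named after its values were seen, had 1631, 728, 465 and 1419 in irradiated and 6662, 3150, 2721 and 3093 in depleted libraries. Sham libraries ranged from 1021 to 4431 and overlapped both groups, and Muc5b did not pass (log2 1.95 ± 0.614, adjusted p = 0.221). Scgb1a1, the main club cell protein gene, was at 0.10 ± 0.235. The mean club marker level was 7.87 to 8.96 in irradiated and 8.69 to 9.44 in depleted libraries. With that mean as a covariate, Agr2 was at 1.41 (adjusted p = 0.0612), and 16 of 44 calls followed gene by gene ended. Agr2 is itself on the club list. Because the club level also differed between the groups, a call that ended does not show that its gene followed that level. In bulk samples a change in the number of cells of a type and in the RNA per cell cannot be told apart.

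Markers of cells that the gate should leave out were present in both groups. Mesothelial genes, from the cell layer that covers the lung, were above 0 in 12 of 13 members with a median of 0.59. Their summed level was 1350 to 2702 in irradiated and 1835 to 3582 in depleted libraries, and 0 of the 13 were at 0 throughout. The list includes Krt19, which is also on the pan-epithelial list, so the sum and the mean level are not of mesothelial cells alone. Here limma and edgeR called 0 members and DESeq2 1, with 5 higher unadjusted. Wt1, a defining mesothelial factor, had 14.7, 31.5, 9.71 and 33.0 in irradiated and 57.2, 34.3, 92.5 and 104 in depleted libraries (log2 1.69 ± 0.454, adjusted p = 0.132), and Msln was at 1.02 ± 0.46. Both were named after their values were seen. With the mean mesothelial level as a covariate, 28 genes were called, 23 of them among the 79. Of 44 calls followed gene by gene 11 were kept, with Saa3 at 3.74, Chl1 at 3.15, Ptger3 at 1.71, Mt2 at 1.34, Btg3 at 0.90 and Col3a1 at 0.53. Retnla was then at 2.16 (adjusted p = 0.108), Timp1 at 1.51 (adjusted p = 0.311), Rgs4 at 1.32 (adjusted p = 0.349), Osr1 at 0.96 (adjusted p = 0.292) and Agr2 at 2.06 (adjusted p = 0.323). The mesothelial level itself differed between the groups, with a mean of 6.24 in irradiated and 6.98 in depleted libraries. A covariate tied to the groups widens the error of their contrast, so a call that ended does not show that its gene followed that level.

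Leukocyte genes were above 0 in 3 of 16 members with a median of -0.21, and their summed level was 3797 to 5013 in irradiated and 3339 to 4215 in depleted libraries. Limma, edgeR and DESeq2 called 0, with 1 higher and 1 lower unadjusted. Ptprc, which codes for CD45, was at -0.44 ± 0.429. Endothelial genes were above 0 in 3 of 22 with a median of -0.31 (0 called by the 3 tools, 2 lower unadjusted), summed level 2949 to 4922 and then 2859 to 4158, and Pecam1 was at -0.31 ± 0.247. Acod1, the enzyme that makes itaconate in activated myeloid cells and named after its values were seen, was the protein-coding call with the lowest log2 change. It had 16.6, 14.97, 28.3 and 14.5 in irradiated and 1.12, 3.81, 4.51 and 4.79 in depleted libraries (log2 -2.15 ± 0.468, adjusted p = 0.0494), where the lowest depleted values are within what a count of 0 allows. The call was lost under 16 of 28 alternatives, with log2 changes between -2.40 and -1.19. With the mean leukocyte level as a covariate the log2 change of Acod1 was -2.07 (adjusted p = 0.0671), and with the mean mesothelial level -2.05 (adjusted p = 0.323).

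Transcripts of neutrophils themselves had values in both directions. Ly6g, the antibody's target, was under the filter, with 0.979, 0, 0.809 and 2.41 in irradiated, 0, 5.08, 3.39 and 1.20 in depleted and 0 in all sham libraries. These levels do not check the depletion. Csf3r, the receptor for granulocyte colony-stimulating factor, had 33.3, 135, 40.5 and 46.6 in irradiated and 5.61, 13.98, 12.4 and 19.1 in depleted libraries, groups that did not overlap (log2 -2.11 ± 0.498, adjusted p = 0.0855). S100a8 had 17.6, 73.3, 21.04 and 49.0 in irradiated and 56.1, 57.2, 38.4 and 142 in depleted libraries (log2 0.91 ± 0.621, adjusted p = 0.614), and Ngp, a granule protein gene named after its values were seen, was at 1.65 ± 0.697. S100a9 was at -0.09 and changed sign under other settings. Of 12 neutrophil genes 5 were above 0, limma and edgeR called 0 and DESeq2 2, with 2 higher and 3 lower unadjusted. Over all 20 genes of the list the summed level was 5309 to 7318 in irradiated and 7215 to 9647 in depleted libraries, a sum that includes the abundant Lcn2. The mean log2 level of the list was 4.40 ± 0.376 (SD, n = 4) in irradiated and 4.21 ± 0.412 in depleted libraries, so the sum and the mean went opposite ways.

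Genes of the ribosome were among the protein-coding falls. Rps7, of the small ribosomal subunit, had 344, 366, 364 and 311 in irradiated and 175, 150, 89.2 and 209 in depleted libraries (log2 -1.21 ± 0.217, adjusted p = 0.041). Rpl26 (-0.68 ± 0.109) and Rpl35a (-0.64 ± 0.0925) of the large subunit also fell. Of 84 cytosolic ribosomal protein genes 3 fell and 0 rose, beside 45 falls and 34 rises of all 16626 genes. In this class 62 were below 0, with a median of -0.06. For 5 of the 84 every depleted library lay below every irradiated one, and for 4 above, beside 528 and 538 of all genes. Ribosomal protein genes have many processed copies in the genome, and the part of how reads were split among them was not tested. Other genes for small proteins that fell were mt-Nd4l of respiratory complex I (-0.51 ± 0.0796), Atp5k of the ATP synthase (-0.58 ± 0.112), the actin-binding Tmsb10 (-0.52 ± 0.0896), Bex2 (-0.53 ± 0.087), and Hmgb3 (-0.46 ± 0.101). Cfl1 (-0.26) and Myl6 (-0.24), of the actin and myosin machinery and named after their values were seen, fell by less.

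Genes for larger proteins also fell. Nrcam, of neural adhesion, had 135, 139, 166 and 154 in irradiated and 105, 107, 91.4 and 76.6 in depleted libraries (log2 -0.65 ± 0.129, adjusted p = 0.0307). The retinaldehyde-binding Rlbp1 (-0.85 ± 0.178), Pgm5 (-0.39 ± 0.0646), Itga8 (-0.37 ± 0.0802) and the non-muscle myosin gene Myh10 (-0.37 ± 0.0786) fell as well. Itga8 was the only call among 17 alveolar fibroblast genes, of which 4 were above 0, and the summed level of that list was 32590 to 40680 in irradiated and 32510 to 36340 in depleted libraries.

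Small nuclear RNAs guide splicing and small nucleolar RNAs guide the chemical marking of ribosomal RNA. Of 65 tested 64 were below 0 with a median of -1.43, and 18 fell and 0 rose. For 46 of the 65 every depleted library lay below every irradiated one, beside 528 of all 16626 genes. Rnu12, the U12 RNA of the minor spliceosome (chromosome 15, start 83149644, end 83149794), had 154, 63.8, 91.4 and 154 in irradiated and 20.2, 22.9, 34.98 and 40.7 in depleted libraries (log2 -1.89 ± 0.279, adjusted p = 0.00755). Snord15b had 40.1, 31.5, 25.1 and 41.0 and then 5.61, 8.90, 6.77 and 13.2 (log2 -1.92 ± 0.291, adjusted p = 0.00413). Rnu2-10, a U2 gene, had 98.8, 63.0, 50.2 and 86.8 and then 16.8, 13.98, 20.3 and 37.1 (log2 -1.76 ± 0.256, adjusted p = 0.0033). These 3 were named after their values were seen. In all libraries Rnu2-10 had the same values as the predicted copies Gm24950, Gm23971 and Gm23849, and Gm23444 the same as Gm23472. Reads of these 6 called genes could not be told apart within each set. The counts of calls include all 6, so they hold some reads more than once. Sham libraries of Rnu2-10 lay between 59.4 and 68.8, within the irradiated range.

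The share of all reads in this class was 0.0444% to 0.0669% in depleted libraries, against 0.0802% to 0.1085% in irradiated and 0.0811% to 0.0959% in sham ones, so the depleted group stood apart from both others. The fall was largest in the shortest genes, and exon length and RNA class were not separated. Genes with under 250 exon bases (98 tested) had a median of -1.26, and the next bin, up to 500 bases, had -0.06. In that next bin 9 of 264 genes were called lower and 1 higher, beside 45 lower and 34 higher of all 16626. Genes of 8000 bases or more had 0.01. In all, 29 of the 45 falls and 7 of the 34 rises had exon lengths under 1000 bases, a range that held 1145 of the genes tested. The abundant 7SL RNA gene Rn7s1, named after its values were seen and with a near-identical copy in Rn7s2, was at -0.38 ± 0.0747 (adjusted p = 0.0268). With all libraries thinned to 8159062 reads, 20 of 60 small RNAs tested were called lower with a median of -1.44, and 0 higher. After removal of a trend on exon length 8 of 65 were called lower (median -1.15). Scaling by TMM factors or library totals gave medians of -1.44 and -1.42. The parts of RNA recovery and library preparation were not tested.

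**Figure D4:**
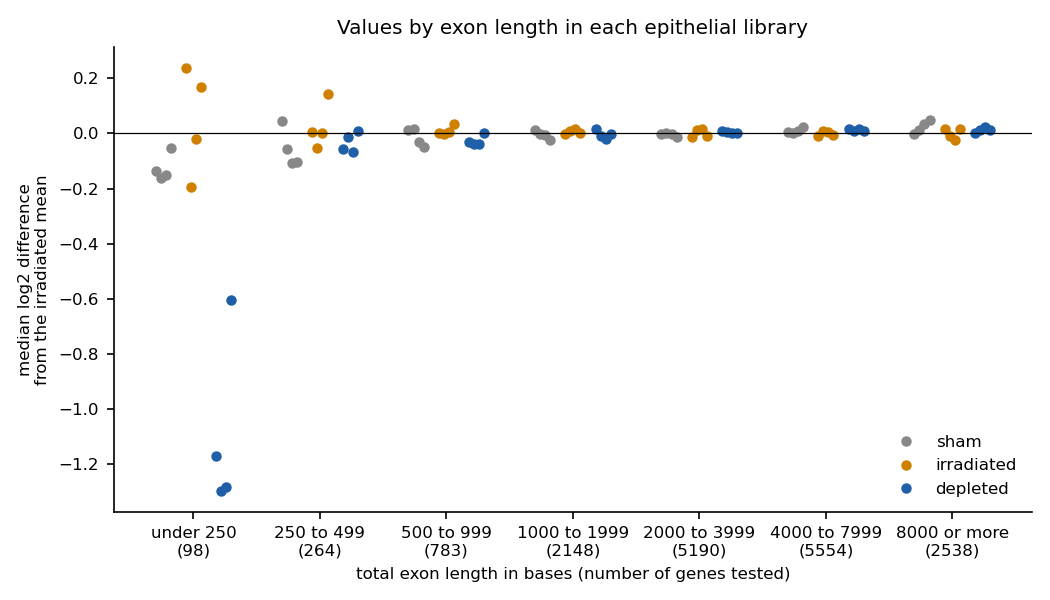
Median log2 difference from the irradiated mean (vertical axis) of genes grouped by total exon length in bases (horizontal axis, number tested in brackets) in each epithelial library. Points are libraries of the sham (grey), irradiated (orange) and depleted (blue) groups. The depleted libraries stand below the others under 250 bases and close to 0 in longer genes.

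The response of the EpCAM-negative, mesenchymal fraction was compared in a fit of all 24 libraries on the 15092 genes tested in both tables. The difference between the fractions in the depletion response was called for 90 genes (0.596%), 15 with the more positive change in epithelium and 75 in mesenchyme. In the mesenchyme alone 448 of 16624 genes were called (2.69%). Of the 79 epithelial calls 73 were tested there, and 16 of these (21.9%, or 3.57% of the mesenchymal calls) were called in the same direction and 0 in the other. The 16 comprised 13 of 32 rises and 3 of 41 falls. The 2 tables come from the same design but separate libraries. Replicate numbers do not say whether the fractions came from the same mice.

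Ptger3 was among the 2 epithelial calls that differed between the fractions, with 2.02 in epithelium, 0.08 in mesenchyme and a difference of 1.94 ± 0.323 (adjusted p = 0.00263). Saa3 (4.01 and 4.74), Chl1 (3.27 and 3.91), Mt2 (1.75 and 2.02) and Timp1 (2.05 and 1.61) were called in both fractions. Their differences did not pass the test (adjusted p = 0.752, 0.725, 0.839 and 0.791), which does not show that the responses were alike. Rgs4 was at 1.83 in epithelium and 0.16 in mesenchyme, a difference that did not pass either (adjusted p = 0.105). Lcn2 had 0.68 in epithelium and 4.04 in mesenchyme (difference -3.36 ± 0.573, adjusted p = 0.00763). Cxcl5, a neutrophil-attracting chemokine named after its values were seen, had 1.27 and 5.02 (difference -3.75 ± 0.666, adjusted p = 0.00515). The epithelial change of Cxcl5 was not called (adjusted p = 0.245). Its epithelial means were low, with 8.34 in irradiated, 23.4 in depleted and 25.2 in sham libraries. At such levels the log2(value + 1) scale understates changes. The 59 small nuclear and nucleolar RNAs tested in both tables had medians of -1.43 in epithelium and -0.37 in mesenchyme, with 51 below 0 in mesenchyme and 0 among the 90 genes of unequal response.

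**Figure D5:**
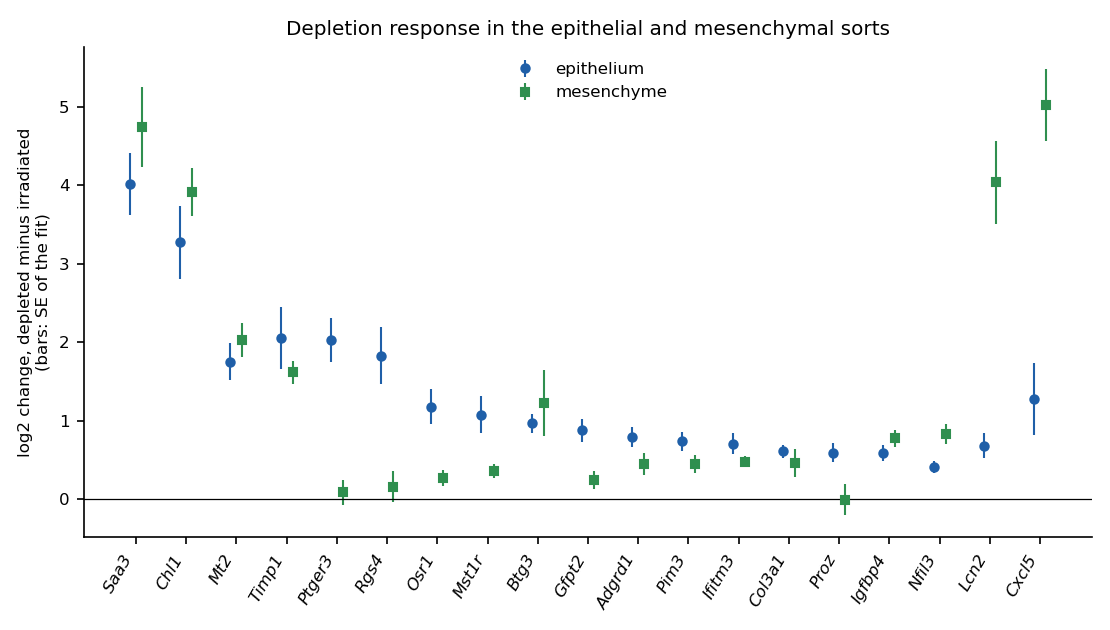
Log2 change of the depleted against the irradiated group for 19 genes in epithelium (blue circles) and mesenchyme (green squares), with the standard error of each fit as bars. Saa3, Chl1, Mt2 and Timp1 are high in both fractions, Ptger3 and Rgs4 are high in epithelium and near 0 in mesenchyme, and Lcn2 and Cxcl5 stand higher in mesenchyme.

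Each library was left out in turn. Of the 44 calls followed gene by gene 19 were kept in all 12 omissions, among them Saa3 (3.84 to 4.44), Retnla (2.02 to 2.42), Chl1, Mt2, Ptger3, Btg3, Gfpt2, Adgrd1, Itga7, Col3a1, Rpl26, Rpl35a, mt-Nd4l, Bex2, Tmsb10, Pgm5, Rnu12, Rnu2-10 and Snord15b. In the fit of the 8 depleted and irradiated libraries alone, 24 of the 44 calls ended, among them Mt2 and, at adjusted p = 0.0513, Rnu12. With a trend on exon length removed, mt-Nd4l was at -0.34 (adjusted p = 0.078) and its call ended. Fbxo32 was lost without irradiated replicate 3 (adjusted p = 0.0519) and Pim3 without irradiated replicate 1 (adjusted p = 0.055). Osr1 was lost without irradiated replicate 1 or 4 and Nfil3 without irradiated replicate 3 or depleted replicate 1. Igfbp4 was lost without irradiated replicate 3 or 4 or depleted replicate 1. Ifitm3 was lost without irradiated replicate 1 or 3 or depleted replicate 1 or 4, Susd6 without irradiated replicate 1, 3 or 4 or depleted replicate 1, Cfl1 without irradiated replicate 1, 2 or 3 or depleted replicate 1, and Atp5k without irradiated replicate 2, 3 or 4 or depleted replicate 1. Nrcam was lost without any irradiated replicate or depleted replicate 4. S100g was lost without irradiated replicate 1, 3 or 4 or depleted replicate 1, 2 or 4, and Rn7s1 without any irradiated replicate or depleted replicate 1 or 2. Rgs4 was lost without sham replicate 4, irradiated replicate 1 or 3 or depleted replicate 1, 2 or 4 (adjusted p up to 0.121). Agr2 was kept without sham replicate 1, 2 or 4, irradiated replicate 1 or depleted replicate 3 and lost otherwise (up to 0.137). Timp1 was kept only without irradiated replicate 1 or 2 or depleted replicate 2 (up to 0.12), and Proz only without sham replicate 1 or 4, irradiated replicate 2 or depleted replicate 3. Acod1 was kept only without sham replicate 2 or 4 or depleted replicate 3 or 4 (up to 0.16). Myh10 was kept only without sham replicate 4, irradiated replicate 1 or depleted replicate 3, and Rlbp1 only without irradiated replicate 4 or depleted replicate 2 or 3. Mst1r was kept only without irradiated or depleted replicate 2, Itga8 only without irradiated replicate 1 or depleted replicate 2, Hmgb3 only without irradiated replicate 4 or depleted replicate 3, Rps7 only without depleted replicate 3 or 4, and Myl6 only without sham replicate 1. The highest adjusted p among all these omissions was 0.16, and no sign changed.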

How the data were processed

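RNA of sorted lung epithelium was depleted of ribosomal RNA and sequenced, per the labels' protocols. The deposited values are a signal: normalised counts, in which the reads of a gene were divided by the size factor of the library. The submitters' processing notes list cutadapt 1.5, STAR 2.2.2a, SAMtools 1.8, RSEM 1.3.0, DESeq2 without a version and GRCm38. The annotation release is not given in the sources used here, and the reference genome is of another strain than Balb/c. Whole reads were recovered from 100% of 283095 positive epithelial values within 0.001. GENCODE M21 gave a symbol to 48349 of 48795 identifiers. The number of columns matched to no sample was 0.

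The log2 of each value plus 1 entered limma 3.58.1 (trend, robust) in R 4.3.3, over the 12 epithelial libraries in 3 groups. The difference between fractions was tested in 1 fit of 24 libraries. Tests were tried on simulated data. Alternatives were edgeR 4.0.16 and DESeq2 1.42.0 on recovered reads and other scalings, filters, pseudocounts, covariates, depths and single omitted libraries. Named genes were the 15 called protein genes with the highest and the 15 with the lowest log2 change, without overlap and with a mean of at least 50 in the higher group, called list members, and fixed cell type, p53 and Notch genes. One gene of this rule is not reported here. Genes outside it are said to be named after their values were seen. The comparison, its members and the 44 gene lists were chosen with earlier results of these data known. Replicate pairs within the epithelial groups differed by more than counting error (chi-square per degree of freedom of at least 2.25).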

Additional observations from a re-analysis of the deposited data

Results flagged for a closer look

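A library standing apart from the other 3 of its group was sought for 96 named genes in both groups, and 13 of 192 checks found one. Chance flags about 1 in 20 such checks. Among irradiated libraries, replicate 2 was apart with the highest value for Saa3 (71.7, the others 20.2 to 24.1), Csf3r (135, the others 33.3 to 46.6), Dll4 (106, the others 65.5 to 71.5) and Lfng (44.9, the others 34.3 to 34.8), and with the lowest for Chl1 (3.15, the others 3.91 to 4.05). Replicate 3 had the highest Acod1 (28.3, the others 14.5 to 16.6). Replicate 4 had the lowest Hes1 (357, the others 464 to 473) and the highest Epcam (1111, the others 1053 to 1062).

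Among depleted libraries, replicate 4 had the highest Mdm2 (1127, the others 881 to 915), Susd6 (2690, the others 2224 to 2290) and Ngp (57.4, the others 14.7 to 18.0). Replicate 1 had the highest Muc5b (6662, the others 2721 to 3150), and replicate 2 the lowest Xbp1 (1699, the others 1765 to 1779), a transcription factor gene of the unfolded protein response.

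In the fit of both fractions the depletion response differed for 3 named genes. The epithelial minus mesenchymal difference was 1.94 for Ptger3, -3.36 for Lcn2 and -3.75 for Cxcl5 on the log2 scale.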

How the results depend on the processing

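The count of 79 was 32 with depleted and irradiated libraries alone, 52 with a mean of at least 50 and 289 with DESeq2, which held all 79. Of settings added after seeing the data, removal of a length trend gave 49, exon lengths of at least 1000 gave 22 and the mesothelial covariate 28, fewer genes being tested in the second. Omitting a single library gave 36 to 199: 43 without irradiated replicate 1, 36 without 3, 49 without 4, 43 without depleted replicate 1 and 199 without 3. The leukocyte covariate gave 79, of which 66 were shared.

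The 90 genes of unequal response were 58 with the replicate block and 43 to 152 with single omissions: epithelial irradiated replicate 1 (53) or 3 (54) or depleted replicate 1 (57), mesenchymal irradiated replicate 4 (51) or depleted replicate 1 (45), 3 (152) or 4 (43). With the replicate block 94 epithelial genes were called, 64 of them shared, 23 small RNAs fell and 6 of the 44 calls followed gene by gene ended. Same-numbered libraries had correlations of -0.0666, 0.0771, -0.0213 and 0.0434 in their deviations, so the numbers were not taken as pairs.

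None of those 44 calls changed sign. Uncalled genes near 0 did. Eda2r was -0.0737 with library weights and -0.161 with the mesothelial covariate. Ager was 0.0097 with the leukocyte, 0.0172 with the mesothelial and 0.0688 with the club covariate. Notch4 was 0.0086 with the leukocyte covariate. S100a9 was 0.168 with the leukocyte covariate, 0.557 with the club covariate and 0.0233 when thinned. Dll1 was -0.0424 and Lfng 0.0391 when thinned. Foxj1 was -0.123 with the mesothelial and Scgb1a1 -0.239 with the club covariate. With single libraries left out, values ran from -0.0559 to 0.0252 for Ager, -0.079 to 0.119 for Eda2r, -0.304 to 0.107 for Notch4, -0.184 to 0.0621 for Lfng, -0.49 to 0.244 for S100a9, -0.0967 to 0.433 for Dll1, -0.445 to 0.0207 for Hey1 and -0.002 to 0.277 for Foxj1. The cause was not tested. Small RNAs called lower ranged from 7 (both groups alone) to 40 (DESeq2) where they were tested. Depth limits calls below about 10 normalised counts.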
